A study of Mus musculus with 2 samples.

Results

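The 31 genes described here encode the Eph receptors, their ephrin ligands, the netrins and the netrin receptors. They were taken by symbol from the gene features of 1 single-cell library, and all 31 were found among 21937. The set comprised 9 EphA receptors (Epha1 to Epha8 and Epha10), 5 EphB receptors (Ephb1 to Ephb4 and Ephb6), 5 ephrin-A ligands (Efna1 to Efna5), 3 ephrin-B ligands (Efnb1 to Efnb3), 3 netrins (Ntn1, Ntn3, Ntn4), Dcc with its relative Neo1, and 4 Unc5 receptors (Unc5a to Unc5d). The rule was membership of these families and used no measured value, though the families were picked with earlier results of these data known.

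Transcripts were counted in single cells of C57BL/6J mouse embryos at E11.5 whose genome carried a piggyBac insertion of CAG-EGFP linked to a DNA barcode. F0_8 and F0_9 were founder embryos, made by electroporation of mPBase mRNA (the transposase) and pronuclear injection of the donor DNA. F1_1 was an embryo of the F1 generation, and F1_mix was a pseudo-mosaic mix of cells from F1 embryos. All 4 suspensions carried the transgene, whose CAG promoter is active in most tissues. No embryo without it was analysed here, and the sex of the embryos was not used. Each suspension was tagged with its own oligo, and the 4 were pooled in 1 droplet library, so they shared the same reagents and sequencing. No embryo was prepared a second time, so a mean ± SD is taken over the 4 suspensions and covers differences between embryos together with technical spread.

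The 5678 cells with an annotated cell type were used, 1599 and 1318 in the founders F0_8 and F0_9, and 1310 and 1451 in F1_1 and F1_mix. The suspensions held 16052917 to 19160116 gene UMIs (unique molecular identifiers, 1 per captured transcript), with median depths of 10880 to 13267 per cell. No barcode was shared between suspensions. Levels are UMIs of a gene summed over the cells of a type in a suspension, per 1000000 gene UMIs of those cells (CPM). Lists of 4 levels begin with the founders F0_8 and F0_9 and end with F1_1 and F1_mix. Capture was at the 3′ end, so a level was compared between cells and suspensions and never between genes.

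Ephs are receptor tyrosine kinases whose ephrin ligands are themselves held at the membrane, so signals pass where cells touch and can run into both cells. EphA receptors mostly bind the lipid-anchored ephrin-A ligands and EphB receptors the transmembrane ephrin-B ligands. They are known for repelling axons, for keeping cell groups apart at tissue borders and for separating arteries from veins. Netrins are secreted, laminin-related cues: Dcc and Neo1 transduce attraction, and Unc5 receptors, alone or with Dcc, transduce repulsion. Netrin-1 of the floor plate and the ventricular zone is the classic cue for axons that grow to the ventral midline of the spinal cord.

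For 27 of the 31 genes, 30 windows of 250 bases before to 50 bases after the annotated start were found in RefSeq (GRCm38.p6). The windows were rich in CG dinucleotides, with a median of 23.5 (range 10 to 56) and a GC content of 66.5%, against 7 and 52.67% over all 32851 windows. CG was counted on the strand shown, which gives the same number on the other strand. The windows of 3 genes that the results below turn on are given with CG in capitals, as examples of the range: Unc5c (chr3:141465314-141465613, plus strand, 24 CG), Efnb2 (chr8:8661193-8661492, minus strand, 35 CG) and Epha6 (chr16:60605482-60605781, minus strand, 15 CG).
Unc5c: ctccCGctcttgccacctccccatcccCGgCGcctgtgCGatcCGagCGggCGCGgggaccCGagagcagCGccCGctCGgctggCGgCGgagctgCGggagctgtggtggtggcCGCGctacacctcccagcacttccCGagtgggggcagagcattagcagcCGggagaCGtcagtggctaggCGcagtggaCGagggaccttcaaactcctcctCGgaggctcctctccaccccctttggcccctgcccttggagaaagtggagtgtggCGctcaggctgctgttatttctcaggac
Efnb2: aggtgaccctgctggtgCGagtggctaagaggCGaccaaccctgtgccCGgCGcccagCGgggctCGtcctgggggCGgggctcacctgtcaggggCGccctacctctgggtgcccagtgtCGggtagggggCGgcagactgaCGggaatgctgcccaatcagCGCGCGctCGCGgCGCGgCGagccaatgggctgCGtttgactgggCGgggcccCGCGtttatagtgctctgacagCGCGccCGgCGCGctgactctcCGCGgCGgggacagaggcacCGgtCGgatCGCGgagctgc
Epha6: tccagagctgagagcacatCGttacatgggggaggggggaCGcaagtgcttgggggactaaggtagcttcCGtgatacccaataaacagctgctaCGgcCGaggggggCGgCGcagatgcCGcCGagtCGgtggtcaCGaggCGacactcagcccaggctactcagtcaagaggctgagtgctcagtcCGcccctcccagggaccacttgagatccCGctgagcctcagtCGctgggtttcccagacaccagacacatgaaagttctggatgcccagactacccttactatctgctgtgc

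Cell type names were the authors' annotation, 16 in all. Fixed marker sets of 4 genes were highest in the type of their own name in 8 of the 12 types with a median depth above 5000 gene UMIs. The neural names were weakly separated by them. The CNS Neuron markers reached 5694 CPM in the CNS Neuron type and 7504 in Neuroectoderm/Glia, and the Neuroectoderm/Glia markers 27.4 in their own type and 1570 in Neuronal Progenitor. The Chondrocyte set reached 535 in Chondrocyte and 687 in Gut Mesenchyme/Amniotic Mesoderm. In 4 types (Endodermal Progenitor, Foregut, Hepatocyte, Midgut) the median depth was 721.5 to 1674 with 23.0% to 55.9% mitochondrial UMIs, and 0 of the 4 led the deep types in the markers of their own name. Levels are therefore given over the 12 deep types first. Because types were cut by clustering these cells, differences of levels between types are described without a test.

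**Figure D1:**
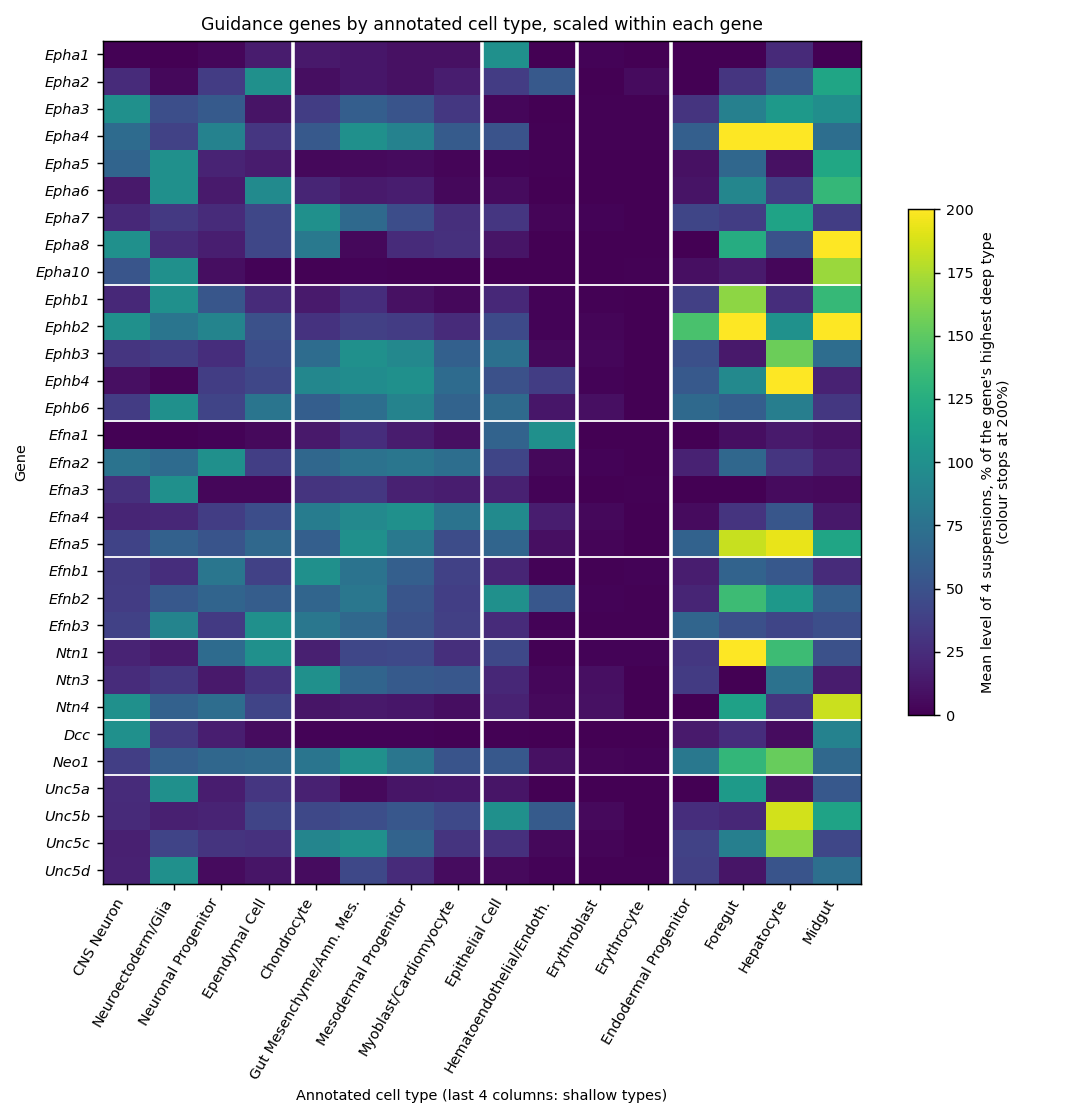
Mean level of each of the 31 genes (rows, by family) in the 12 deep and 4 shallow annotated cell types (columns), as a percentage of the gene's highest deep type, with the colour scale stopping at 200%. Dcc, Epha5 and Ephb1 were highest in neural types, Efna5, Epha4, Neo1 and Unc5c in Gut Mesenchyme/Amniotic Mesoderm among the deep types, and all genes were low in red cells.

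Among the EphA receptors, Epha3, Epha5 and Epha10 had their highest deep-type levels in neural types. Epha5, a receptor known from topographic axon mapping, stood at 653.7, 684.8, 609.8 and 678.9 CPM in Neuroectoderm/Glia, where 63.0% of cells had a UMI after each cell was thinned to 5000 UMIs. Its next type was CNS Neuron at 421 ± 44.3 (SD, n = 4), and the lowest suspension of the first type lay above the highest of the second. Epha3 was highest in CNS Neuron at 510.1, 493.7, 494.0 and 456.3, and its next type was Gut Mesenchyme/Amniotic Mesoderm at 293 ± 27.1, again without overlap. Epha10, a receptor that lacks kinase activity, was highest in Neuroectoderm/Glia at 26.3, 44.0, 76.7 and 78.8, a spread that overlapped CNS Neuron at 29.8 ± 8.41. Epha6 was read at 112.9, 100.1, 66.6 and 72.9 in Neuroectoderm/Glia, and at 18.33, 219.9, 80.42 and 18.46 among the 137 Ependymal Cell cells. The Ependymal Cell value was thus set largely by 1 founder.

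Epha4 and Epha7 were highest outside the neural types. Epha7 stood at 338.6, 405.5, 307.2 and 344.0 in Chondrocyte, above every suspension of the next type, Gut Mesenchyme/Amniotic Mesoderm, at 238.5 ± 17.3. Epha4, which binds ephrins of both classes, was at 234 ± 42.6 in Gut Mesenchyme/Amniotic Mesoderm, 208 ± 27.6 in Neuronal Progenitor and 208 ± 53.1 in Mesodermal Progenitor, and these ranges overlapped. Epha1 was highest in epithelium. It was read at 16.07, 17.45, 14.41 and 11.53 in Epithelial Cell, and its next type, Ependymal Cell, had 2.28 ± 3.35. Sparse receptors were Epha2, highest in Ependymal Cell at 8.38 ± 4.23, and Epha8, with 54 UMIs in all and 2.39 ± 2.49 in CNS Neuron, where 1 of the 4 suspensions had none.

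The EphB receptors split between neural and mesodermal types. Ephb1 stood at 164.0, 200.9, 123.2 and 130.5 in Neuroectoderm/Glia, above all suspensions of Neuronal Progenitor at 82.8 ± 16.8. Ephb2 was spread over the neural types, at 166 ± 12.6 in CNS Neuron, 150 ± 19.2 in Neuronal Progenitor and 129.5 ± 17.7 in Neuroectoderm/Glia. Neighbours in that order overlapped. Ephb4, the receptor that marks veins, reached 53.0 ± 6.75 in Mesodermal Progenitor, 51.7 ± 5.02 in Gut Mesenchyme/Amniotic Mesoderm and 49.3 ± 10.3 in Chondrocyte. Ephb3 was at 19.6 ± 4.03 in Gut Mesenchyme/Amniotic Mesoderm and 18.4 ± 3.51 in Mesodermal Progenitor. Ephb6, which like Epha10 lacks kinase activity, was sparse, and its highest mean was 6.98 ± 1.84 in Neuroectoderm/Glia.

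Of the ephrin-A ligands, Efna5 was broad, with its highest deep-type levels in mesoderm. It stood at 679.1, 664.9, 574.6 and 646.1 in Gut Mesenchyme/Amniotic Mesoderm, above Mesodermal Progenitor at 516.6 ± 27.1, and 76.7% of the cells of the first type had a UMI after thinning. The third type was Ependymal Cell at 435, so Efna5 was not particular to mesoderm. Efna3 was highest in a neural type. Its levels of 45.2, 36.5, 51.5 and 47.4 in Neuroectoderm/Glia lay clear of the next type, Gut Mesenchyme/Amniotic Mesoderm, at 14.8 ± 3.61. Efna1, first described in endothelium, was read at 49.1, 20.3, 86.4 and 6.02 in the 76 Hematoendothelial Progenitor/Endothelium cells and at 26.1, 31.4, 25.5 and 19.8 in Epithelial Cell. Its spread was wide in the first type, which held 15 to 25 cells per suspension, and narrow in the second. Efna2 was at 111 ± 16.3 in Neuronal Progenitor and 86.9 ± 4.65 in Mesodermal Progenitor. Efna4 was nearly level over Mesodermal Progenitor (73.2 ± 0.766), Epithelial Cell (70.1 ± 11.1) and Gut Mesenchyme/Amniotic Mesoderm (68.9 ± 0.635).

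Of the ephrin-B ligands, Efnb1 was highest in Chondrocyte at 103.2 ± 12.98, where 92.4 was its lowest suspension, ahead of Neuronal Progenitor at 81.0 ± 24.1. Efnb2, the ligand that marks arteries, reached 107.5 ± 24.3 in Epithelial Cell and 84.9 ± 16.6 in Gut Mesenchyme/Amniotic Mesoderm, and in Hematoendothelial Progenitor/Endothelium it was at 98.1, 26.4, 65.7 and 42.1. Efnb3, a midline ligand of the spinal cord, was at 60.6 ± 19.2 in Ependymal Cell and 54.9 ± 9.86 in Neuroectoderm/Glia. For all 3 ligands the leading types overlapped in their suspensions.

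Ntn1 was highest in the cells of the ventricular lining and its progenitors. It was read at 146.6, 66.2, 99.3 and 203.0 in Ependymal Cell and at 61.5, 101.4, 128.8 and 68.2 in Neuronal Progenitor, which overlapped. Ntn3 was highest in the type annotated Chondrocyte, at 22.29, 25.002, 26.88 and 29.91, above Gut Mesenchyme/Amniotic Mesoderm at 16.7 ± 2.62. Ntn4 was at 55.4 ± 14.1 in CNS Neuron and 39.7 ± 7.61 in Neuronal Progenitor.

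Dcc was the most counted of the 31 genes, with 94613 UMIs in 70.62% of cells. It stood at 8887, 8517, 9475 and 8150 CPM in CNS Neuron, at 2935 ± 104 in Neuroectoderm/Glia and at 1464 ± 220 in Neuronal Progenitor, with no overlap between these types. After thinning, 94.1% of CNS Neuron cells had a Dcc UMI, and so did 14.6% of Erythrocyte cells, a type that should lack it (96.8% and 51.67% before thinning, at median depths of 10898.5 and 24289). The Dcc level was 29.8 CPM in red cells and 1290 in droplets of 1 to 100 UMIs, so low shares of Dcc-positive cells cannot be read as expression. Neo1, which also binds repulsive guidance molecules, was highest outside the neural types. It led in Gut Mesenchyme/Amniotic Mesoderm at 188.7, 203.0, 213.5 and 202.6, above Mesodermal Progenitor at 158 ± 16.8 in every suspension.

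The Unc5 receptors were led by different types. Unc5c stood at 555.9, 644.5, 480.7 and 510.1 in Gut Mesenchyme/Amniotic Mesoderm, overlapping Chondrocyte at 497.8 ± 25.04. Unc5d was highest in Neuroectoderm/Glia at 196.2, 295.8, 139.3 and 117.4, and its lowest suspension fell within the range of Gut Mesenchyme/Amniotic Mesoderm at 132.7, 99.3, 35.8 and 58.6. Unc5b, a receptor of endothelium and epithelium, was at 37.1 ± 9.84 in Epithelial Cell and 21.4 ± 10.5 in Hematoendothelial Progenitor/Endothelium. Unc5a was sparse, at 7.53 ± 3.34 in Neuroectoderm/Glia.

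**Figure D2:**
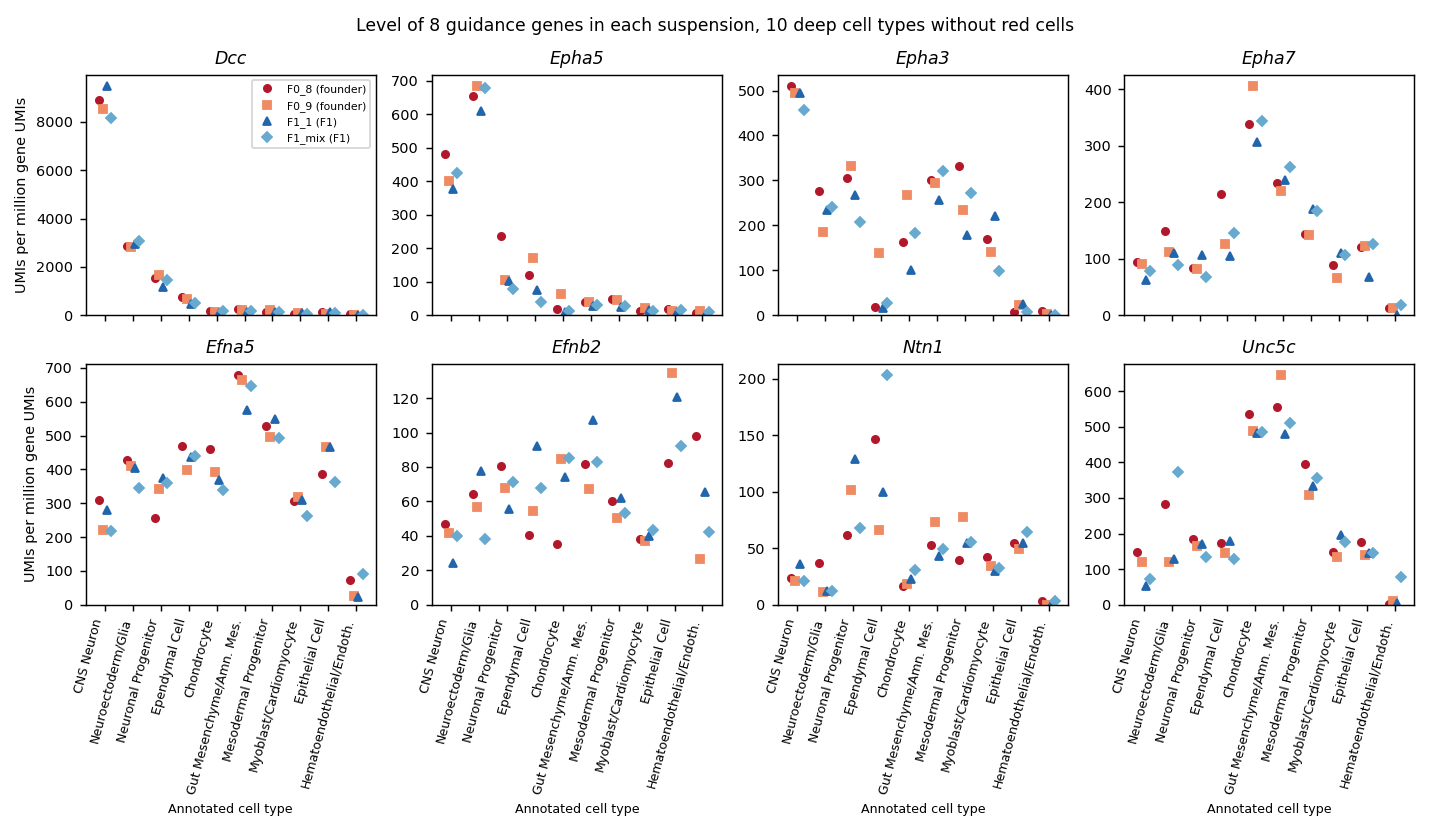
Level in CPM of 8 genes (panels) in the 10 deep cell types without red cells, with 1 point per suspension and founders and F1 in separate colours. The 4 suspensions of CNS Neuron lie between 8150 and 9475 for Dcc, clear of every other deep type, whereas those of Ependymal Cell for Ntn1 spread from 66.2 to 203.

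Over the 13 types with at least 20 cells in every suspension, 6 of the 31 genes had a highest type whose suspensions all lay above those of every other type (Epha1, Epha5, Ephb3, Ephb4, Efna1, Efna3), against 9.53% of all 15223 genes with 20 or more UMIs. For 3 of them that type was a shallow one: Midgut for Epha5, at 781 ± 86.4, and Hepatocyte for Ephb3, at 30.3 ± 3.49, and Ephb4, at 111.4 ± 23.3. Per UMI outside mitochondrial genes, Ephb3 and Ephb4 were no longer separate. With a mean over cells only Epha1 and Efna3 were, 6.45% of the members against 9.45% of all genes, so the excess over all genes depended on the measure. Over the 9 deep types among the 13 the count was 12 of 31 (Epha1, Epha3, Epha5, Epha7, Ephb1, Efna1, Efna3, Efna5, Ntn3, Dcc, Neo1, Unc5b), against 15.9%. Dcc, Epha3, Efna5 and Neo1 were among those that counted only once the shallow types were left out. Efna1 and Unc5b counted although their ranges in Hematoendothelial Progenitor/Endothelium, which had too few cells to be among the 13, overlapped those in Epithelial Cell.

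Ligands and receptors that bind each other, and some pairs of receptors, were set side by side over the 12 deep types, as log2(level + 1). Efna5 and Epha7 ran most closely together, with a Pearson r of 0.977, and 0.921 over the 10 types without red cells. Efna5 and Epha4 gave 0.922 and 0.901, Ntn1 and Neo1 0.877 and 0.838, and Efnb1 and Ephb3 0.893 and 0.773. Other pairs had a much lower r without red cells: Efnb2 and Ephb2 went from 0.754 to 0.012, Ntn1 and Unc5b from 0.545 to −0.062, Efnb2 and Ephb4 from 0.770 to 0.321, and Dcc and Unc5c from 0.472 to 0.097. Dcc and Unc5c thus led in different tissues, CNS Neuron and Gut Mesenchyme/Amniotic Mesoderm. These r are descriptions over 12 or 10 points that share 1 library and depth.

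In the shallow types most of the 31 genes were higher. Per UMI outside mitochondrial genes, all 14 members of 100 kb or longer had a higher level in the shallow than in the deep types, by a median of 2.77-fold, beside 97.9% of 2131 genes of that length (median 2.76). Of the members of 20 to 100 kb with 100 or more UMIs, 6 of 6 were higher (median 2.97, all genes 1.60), and of the shorter ones 7 of 10 (median 1.11, all genes 0.586). The ratio was 4.37 for Ephb2, 0.74 for Efna4, 0.60 for Efna2 and 0.20 for Efna3. The pattern of the 31 genes in Midgut was nearest to CNS Neuron (r = 0.747 over the genes) and that in Foregut to Neuronal Progenitor (r = 0.822), while Hepatocyte was nearest to Mesodermal Progenitor (0.545). Endodermal Progenitor was nearest to Neuronal Progenitor, at only 0.325. In Midgut, Dcc stood at 4850, 5112, 9101 and 12114 CPM. The part of gene length and of depth in these levels was not tested.

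**Figure D3:**
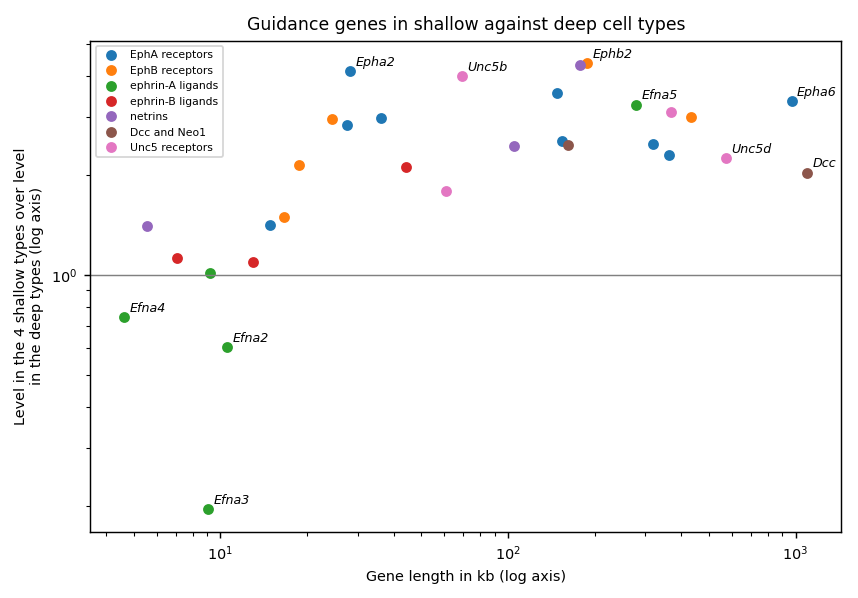
Ratio of the level in shallow over deep types (log axis, UMIs outside mitochondrial genes) against gene length in kb (log axis) for the 31 members, coloured by family. The 14 genes of 100 kb or longer all lie above 1, with a median of 2.77, and Efna2, Efna3 and Efna4 lie below it.

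To ask how the genes differ between cells inside the broad types, cells were split by short lists of marker genes that contain no member. A cell was positive with at least 2 UMIs of its list, the rest had none, and UMIs summed per class and suspension were compared by edgeR's quasi-likelihood test with a suspension term and Benjamini-Hochberg adjustment over all genes tested. Log2 differences are positive class minus rest, with their SE.

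Floor plate list-positive cells (Shh, Foxa2, Spon1) held more Ntn1 and less Unc5c and Dcc than the other cells of their types. The list was shortened after the data were seen. Ntn1 stood at 307.4, 175.7, 253.9 and 233.5 CPM in 163 positive cells and at 30.3, 34.0, 55.7 and 32.4 in 1008 others, a log2 difference of 2.68 ± 0.18 (adjusted p = 5.11e-05, edgeR). Every suspension of the positive cells lay above every one of the rest. The repulsive receptor Unc5c was the reverse, at 25.2, 20.6, 52.5 and 64.5 against 255.3, 171.0, 198.2 and 249.4 (−2.38 ± 0.21, adjusted p = 0.000182, edgeR). Dcc was lower as well, at 1087, 891, 864 and 1381 against 2146, 2315, 1743 and 1963 (−0.96 ± 0.12, adjusted p = 0.00137, edgeR). For neither receptor did the classes overlap. Of 23 members tested, 1 was called higher, where 5.02% of all genes were, and 9 were called lower, where 3.62% were. The others lower were the EphA receptors Epha5 (−1.30), Epha6 (−1.30), Epha3 (−0.74) and Epha4 (−0.67), and the ligands Efnb1 (−0.94), Efnb2 (−0.87) and Efna2 (−0.60). Without F0_8, Epha6 (−1.17), Efnb1 (−0.83), Epha3 (−0.61) and Epha4 (−0.57) were not called, and without F1_mix Efnb1 (−0.83), Efnb2 (−0.82), Epha4 (−0.62) and Epha3 (−0.59) were not. Without F0_9, Epha6 (−0.94), Efnb2 (−0.70) and Epha4 (−0.63) were not called, and Efna2 was not called when any 1 suspension was left out (−0.72 to −0.48). Efna2 was not called by DESeq2 either (−0.60), nor Epha3 with 1 more marker UMI (−0.65), nor Epha3 (−0.57) and Epha6 (−1.05) in cells of at least 10000 UMIs, an alternative added after seeing the data.

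The positive cells were 73 Neuronal Progenitor, 55 Ependymal Cell and 35 Neuroectoderm/Glia cells, and the last type made up 440 of the 1008 others. Spon1, which encodes a secreted protein of the floor plate, was read in 128 positive cells, Shh in 71 and Foxa2 in 45. Without Neuroectoderm/Glia, an alternative added after seeing the data, 4 of 20 members were called higher (all genes 7.39%) and 7 lower (all genes 5.17%). Ntn1 (2.52), Unc5c (−2.51), Dcc (−1.37), Efnb2 (−1.30), Efnb1 (−1.19), Efna2 (−0.90), Epha3 (−0.88) and Epha4 (−0.86) were called there too, and Efnb3 (1.11), Ephb1 (0.97) and Ephb2 (0.57) were added as higher. Epha5 was at −0.26 (adjusted p = 0.43, edgeR) and Epha6 at −0.19 (adjusted p = 0.848, edgeR). Of the 50 listed partners and effectors, 11 of 48 tested were called in the full comparison, 4 higher and 7 lower. Dock1 (1.31), a Rac activator downstream of Dcc, and Rgma (0.84), a ligand of Neo1, were higher, and Draxin (−2.62), an inhibitory ligand of Dcc, and Pak1 (−0.66), a kinase of the actin skeleton, were lower. These 4 were also called without Neuroectoderm/Glia, in the same directions (0.95, 0.68, −4.06 and −0.73). Other partners depended on that type. Dscam, a netrin receptor, was called lower with it (−0.94) and higher without it (2.12), Lrrc4c went from −0.83 to 0.54 (adjusted p = 0.0858 by edgeR in the latter), and Vav3 (−1.28), an exchange factor bound by Ephs, was at −0.99 and not called. Robo3 (−2.47) was not tested there. Without Neuroectoderm/Glia, 8 of the 10 partners called among 44 were higher and 2 lower. Mcam (3.45), which binds netrin-1, passed the filter on low counts only through the positive cells and Trim67 (−1.87) only through the others, so nothing is read from these 2.

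Within CNS Neuron, the list drawn up for motor neurons was met almost wholly by Isl1. Of 75 positive cells 74 had an Isl1 UMI, 2 had Mnx1, 3 Slc18a3 and 2 Slc5a7, so they are called Isl1-positive cells here and not motor neurons. Dcc and the EphA receptors Epha3, Epha4 and Epha7 were lower in them, and Epha5 was at −0.26 ± 0.25 (adjusted p = 0.564, edgeR). Dcc stood at 1539, 2621, 3781 and 3494 against 10837, 10064, 10516 and 9206 in 433 other neurons (−1.80 ± 0.17, adjusted p = 1.3e-05, edgeR), a gap that no suspension bridged. Epha3 was at 46.0, 172.0, 62.8 and 152.7 against 701.1, 565.1, 565.1 and 533.8 (−2.35 ± 0.27, adjusted p = 6.62e-05, edgeR). Of 19 members tested, 8 were lower (all genes 7.25%) and 0 higher (all genes 8.38%), with 13 at an unadjusted p under 0.05. The other 6 were Epha10 (−2.14), Unc5d (−1.91), Epha4 (−1.35), Ntn4 (−1.34), Ephb2 (−0.94) and Epha7 (−0.82). Epha10 passed the filter on low counts only through the other neurons, so its call is not a finding. Epha7 was not called by DESeq2 (−0.88), without F0_9 (−0.54) or without F1_1 (−0.77), nor Unc5d without F0_8 (−1.63), F0_9 (−1.64) or F1_mix (−1.70). Of the Isl1-positive cells 11 also met the GABAergic list used below, and of the 433 others 143. The part of this overlap in the differences was not tested.

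The Isl1-positive cells were deeper, with a median of 16298 UMIs against 10492. Genes of 100 kb or longer were called lower in 19.5% of cases there, and 7 of the 8 called members are that long. The part of gene length in these differences was not tested. With cells of at least 10000 UMIs in both classes, an alternative added after seeing the data, Dcc (−2.59) and Epha3 (−2.14) were called and Epha7 (−0.92) was not. It had enough cells in 3 of the 4 suspensions, and the classes still differed in depth, with medians of 18320.5 and 12385. Among the partners 7 of 41 were called. Robo3, which passed the filter only through the other neurons, Vav3 (−2.26), Rgmb (−1.48), Adgrl3 (−1.01), which binds Unc5 and Flrt proteins, and Pak1 (−0.83) were lower. Dscaml1 (2.98), a relative of the netrin receptor Dscam, and Enah (0.94), an actin regulator in growth cones, were higher.

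GABAergic list-positive neurons (Gad1, Gad2, Slc32a1, Pax2) had more Epha3, at 605.5, 589.8, 628.7 and 540.6 in 161 cells against 390.8, 484.6, 428.5 and 411.9 in 334 others. The difference was 0.43 ± 0.09 (adjusted p = 0.00808, edgeR), and the ranges did not overlap. Of the 161 positive cells 11 also met the Isl1-led list, and of the 334 others 62. Epha3 was low in Isl1-positive cells, and the part of this overlap in the differences was not tested. Neo1 (−0.60) and Ephb2 (−0.46) were lower. Of 20 members tested, 1 was higher (all genes 4.31%) and 2 were lower (all genes 4.84%). Neo1 was not called when any 1 suspension was left out (−0.68 to −0.53), nor Ephb2 without F0_8 (−0.41), F1_1 (−0.38) or F1_mix (−0.46). Neither was called by DESeq2 (−0.59 and −0.47) or in cells of at least 10000 UMIs, an alternative in which Unc5c was called lower (−1.84, adjusted p = 0.00325, edgeR), beside −0.68 (adjusted p = 0.308, edgeR) in all cells. Dcc was at −0.14 ± 0.06 (adjusted p = 0.154, edgeR). Of 40 partners, Robo3 (1.83), Rgmb (0.97) and Vav3 (0.59) were higher, and Kalrn (−0.38) and the kinase Fyn (−0.36) were lower. By DESeq2 neither Vav3 nor Fyn was called.

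In mesenchyme, distal limb list-positive cells (Hoxa13, Hoxd13, Hoxd12, Hoxd11) held another ephrin-A make-up. Efna5 stood at 332.6, 260.2, 169.4 and 287.2 in 266 cells against 699.5, 661.3, 579.6 and 573.4 in 1132 others (−1.27 ± 0.09, adjusted p = 3.72e-06, edgeR). Efna1 was the reverse, at 17.0, 26.2, 18.1 and 24.4 against 5.45, 6.49, 2.42 and 5.40 (2.05 ± 0.26, adjusted p = 0.000254, edgeR). For neither ligand did the classes overlap. Epha4, a receptor for both and known in limb innervation, was higher at 255.0, 295.3, 264.1 and 338.5 against 205.3, 223.5, 138.9 and 181.2 (0.59 ± 0.11, adjusted p = 0.00276, edgeR). Unc5b was higher too (1.21), and Dcc (−0.97), Efnb2 (−0.92), Ntn1 (−0.54) and Epha7 (−0.40) were lower. Of 26 members, 3 were higher (all genes 4.45%) and 5 lower (all genes 6.39%). Epha7 was not called without F0_9 (−0.27) or F1_mix (−0.40), nor Ntn1 without F0_9 (−0.57), F1_1 (−0.46) or F1_mix (−0.54). By DESeq2 on all 4 suspensions neither Epha7 (−0.39) nor Ntn1 (−0.56) was called. The positive cells came from Gut Mesenchyme/Amniotic Mesoderm (129), Mesodermal Progenitor (118) and Chondrocyte (19), and the rest numbered 511, 354 and 267 in the same order. Epha7, lower in the positive cells, is highest in Chondrocyte, and the part of this make-up in the differences was not tested. Of 42 partners 9 were called: Chn1 (0.52), an effector of Epha4, and Tiam1 (0.57) higher, and Lrrc4c (−2.22), Flrt2 (−1.13), Ntng1 (−0.61), Flrt3 (−0.56), Rgma (−0.53), Fyn (−0.44) and Kalrn (−0.37) lower. Flrt2, Ntng1, Flrt3, Rgma and Fyn were not called by DESeq2.

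Between surface ectoderm and endoderm list-positive cells of the Epithelial Cell type (80 and 63 cells), 0 of 13 members were called by edgeR and 0 by DESeq2, with 7 at an unadjusted p under 0.05. In cells of at least 10000 UMIs, over 3 suspensions, Efna5 was called higher in the surface ectoderm class (0.86, adjusted p = 0.00152, edgeR), beside 0.58 (adjusted p = 0.135, edgeR) in all cells. Of all genes 3.06% were called higher and 2.08% lower. Of 32 partners, Ablim1 (1.55), an actin-binding protein, was higher and the adaptor Nck2 (−0.88) lower. Neither was called by DESeq2, and Nck2 was not called when any 1 suspension was left out or in cells of at least 10000 UMIs.

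Endothelial list-positive cells (26) were set against macrophage list-positive cells (49) with at least 5 cells per class and suspension, a limit lowered after seeing the data. Efnb2, a marker of arterial endothelium, stood at 201.0, 112.3, 195.1 and 123.4 CPM against 12.02, 2.656, 0 and 4.407, from 72 and 4 UMIs. It was the only member to pass the filter on low counts and passed it only through the endothelial class, so its levels are a description here and no test of them is given. In this comparison 13.2% of all genes were called higher and 15.1% lower. Of 15 partners tested, the kinase Fyn and the exchange factors Dock1 and Trio were called higher. The kinases Abl2, Yes1 and Ptk2, and Maged1, also past the threshold, passed the filter only through the endothelial class like Efnb2, so nothing is read from them.

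**Figure D4:**
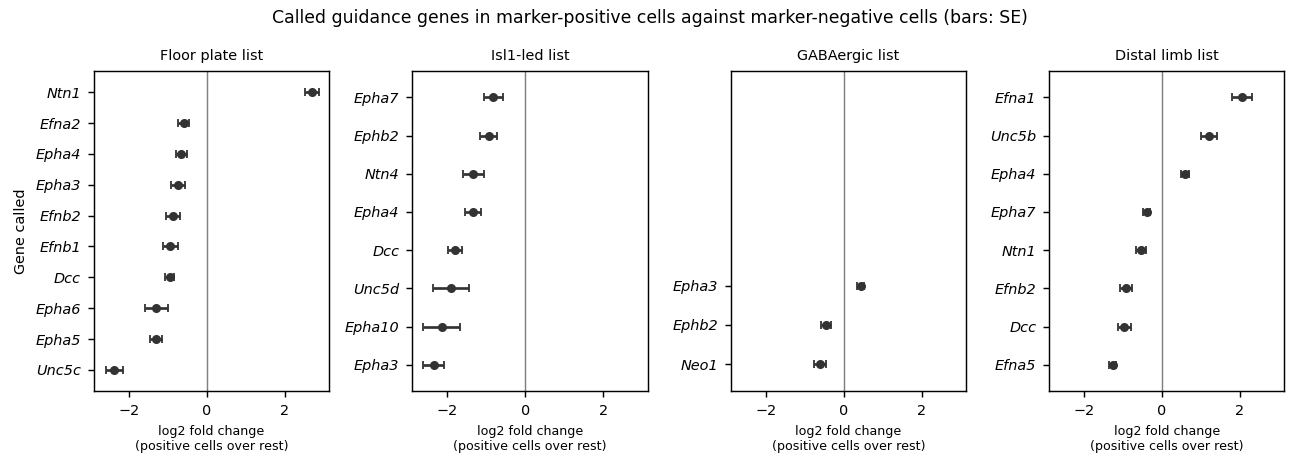
Log2 difference of marker-positive cells minus the rest (points, with bars of 1 SE) for the members called by edgeR in 4 marker-class comparisons (panels). Epha10 in the Isl1 panel passed the filter on low counts only through the other neurons, so its point is not a finding. Ntn1 at 2.68 and Unc5c at −2.38 stand at opposite ends of the floor plate comparison, and Efna1 at 2.05 and Efna5 at −1.27 of the distal limb comparison.

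The founders were compared with the F1 suspensions, 2 against 2, within each of 13 types and over all cells. Of 257 pairs of member and type, 6 were called, 5 higher and 1 lower in founders, 0.753% being the share over all genes, and 55 had an unadjusted p under 0.05. All 6 called pairs are of genes of 100 kb or longer. In the 4 types with a member called higher, such genes were called higher in 2.12% (CNS Neuron), 2.51% (Mesodermal Progenitor), 3.07% (Chondrocyte) and 3.76% (Gut Mesenchyme/Amniotic Mesoderm) of cases, against 0.474%, 0.723%, 0.802% and 1.03% of all genes. The part of gene length in these calls was not tested. Unc5d was the member with most calls. It stood at 132.7 and 99.3 in the founders and at 35.8 and 58.6 in the F1 suspensions in Gut Mesenchyme/Amniotic Mesoderm (log2 difference 1.24 ± 0.20 SE, adjusted p = 0.0146, edgeR). In Mesodermal Progenitor it stood at 65.0 and 60.1 against 22.4 and 37.5 (1.05 ± 0.20, adjusted p = 0.0189, edgeR). In both types each founder lay above each F1 suspension.

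Across the 10 types in which Unc5d was tested, the log2 difference was above 0 in 9, with a median of 0.99 and a range of −0.07 to 1.89. The top of that range comes from types with few Unc5d UMIs, so the tally is a description. Founders were above without overlap in 6 of them, among which Neuroectoderm/Glia (0.94, adjusted p = 0.0771, edgeR) and Hepatocyte (1.23, adjusted p = 0.189, edgeR) were not called. Chondrocyte (1.86) and Ependymal Cell (1.89) are among the 6 and were not called either. Unc5d was sparse in the F1 suspensions there, so these values are a description and their tests are not read. In CNS Neuron, Neuronal Progenitor, Midgut and Myoblast/Cardiomyocyte the suspensions overlapped.

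Epha5 was higher in founders in Mesodermal Progenitor, at 49.3 and 44.5 against 25.8 and 27.3 (0.82 ± 0.17, adjusted p = 0.0311, edgeR). Unc5c was higher in CNS Neuron at 149.4 and 118.6 against 52.7 and 72.1 (1.06 ± 0.17, adjusted p = 0.0206, edgeR). Neither overlapped between the generations. Epha6 stood at 31.8 and 28.3 against 8.96 and 3.45 in Chondrocyte, from 30, 26, 7 and 3 UMIs. It is among the 6 pairs past the threshold, but it passed the filter on low counts only through the founders, so these levels are a description and no test of them is given. Dcc was lower in founders in the shallow Midgut type (−0.92 ± 0.28, adjusted p = 0.0497, edgeR), where its median depth was 998 UMIs. Only Unc5d and Epha5 kept their calls over all cells in every alternative tried, and the calls within types were each lost in at least 1. Without F0_8 none of the 6 was called by edgeR, at log2 differences of 0.89 for Unc5c in CNS Neuron, 1.01 for Unc5d in Gut Mesenchyme/Amniotic Mesoderm and 0.998 in Mesodermal Progenitor, 0.75 for Epha5, 2.17 for Epha6 and −0.92 for Dcc, while 7 other pairs were. Without F0_9, Epha6 (2.37), Epha5 (0.87), Unc5d in Mesodermal Progenitor (1.09) and Dcc (−0.92) were not called, nor was Epha6 without F1_mix (1.72). By DESeq2 on all 4 suspensions, Epha5 (0.82) and Unc5d in Mesodermal Progenitor (1.06) were not called either and Epha6 was given no adjusted p, and by edgeR with no filter on low counts Epha6 was not called (2.27).

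Over all cells, 4 of 31 members were called, all higher in founders, against 7.52% of all genes in either direction, and 12 had an unadjusted p under 0.05. Unc5d stood at 65.9 and 65.0 against 26.0 and 29.9 (1.22 ± 0.08, adjusted p = 0.00711, edgeR). Epha5 was at 164.8 and 153.2 against 107.7 and 118.1 (0.49 ± 0.06, adjusted p = 0.0147, edgeR). Epha6 (0.79) and Ephb1 (0.44) followed, though Epha6 was not called without F1_mix (0.68), nor Ephb1 without F0_9 (0.37), F1_1 (0.43) or F1_mix (0.46). In each of the 4 both founders were above both F1 suspensions. Measured facts moved with this result. Both founders were shallower than both F1 suspensions, with median depths of 10880 and 11904.5 against 12996 and 13267. The founders held more Gut Mesenchyme/Amniotic Mesoderm cells (259 and 171 against 97 and 147) and more Neuroectoderm/Glia cells (164 and 151 against 79 and 108), and fewer Myoblast/Cardiomyocyte cells (99 and 115 against 210 and 220). In this last type the 4 genes were low, at 16.1 ± 3.99 for Epha5, 11.7 ± 3.66 for Unc5d, 7.18 ± 2.98 for Ephb1 and 3.48 ± 1.98 for Epha6. Genes of 100 kb or longer were called higher in founders in 13.7% of cases, against 4.43% of all genes and 2.82% of those under 20 kb, and all 4 called members are of that length. The part of depth, cell numbers or gene length in the differences was not tested.

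The share of distal limb list-positive cells was higher in both founders than in both F1 suspensions in each of the 3 mesenchymal types. Of Gut Mesenchyme/Amniotic Mesoderm cells, 25.9% (exact Clopper-Pearson 95% interval 20.6 to 31.7) and 25.1% (18.8 to 32.3) were distal limb list-positive in F0_8 and F0_9, against 4.12% (1.13 to 10.2) and 10.2% (5.82 to 16.3) in F1_1 and F1_mix. In Mesodermal Progenitor, the other type where Unc5d was called, the shares were 29.8% (22.1 to 38.4) and 32.3% (23.1 to 42.6) against 14.8% (9.18 to 22.2) and 20.6% (14.2 to 28.2), and in Chondrocyte 7.95% (3.26 to 15.7) and 9.76% (4.31 to 18.3) against 5.36% (1.12 to 14.9) and 1.43% (0.0362 to 7.70). The intervals cover counting error only, and the difference between the generations was not tested. Unc5d was not called between distal limb list-positive cells and the rest (−0.28 ± 0.17, adjusted p = 0.343, edgeR). The part of these cells in the Unc5d calls between generations was not tested.

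Of the partners, 7 of 49 were called over all cells, all higher in founders: Dscaml1 (1.87), Lrrc4c (0.77), Flrt1 (0.75), Dscam (0.69), Adgrl3 (0.54), Fyn (0.25) and the ephrin-cleaving protease Adam10 (0.21). Of all genes 7.52% were called there in either direction. Only Lrrc4c kept its call in every alternative tried, and Flrt1 and Adam10 were not called by DESeq2. Within types 6 of 479 pairs were called, where 0.753% of the pairs over all genes were. Dscaml1 (2.24) and Flrt1 (1.46) were higher in CNS Neuron, Dscaml1 was higher in Midgut (1.71), and Adgrl3 was higher in Chondrocyte (0.54), Gut Mesenchyme/Amniotic Mesoderm (0.47) and Mesodermal Progenitor (0.69). Only the last kept its call in every alternative tried. By DESeq2 neither Flrt1 in CNS Neuron nor Adgrl3 in Chondrocyte was called. No ephrin ligand, netrin or EphB receptor was called between the generations within any type.

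**Figure D5:**
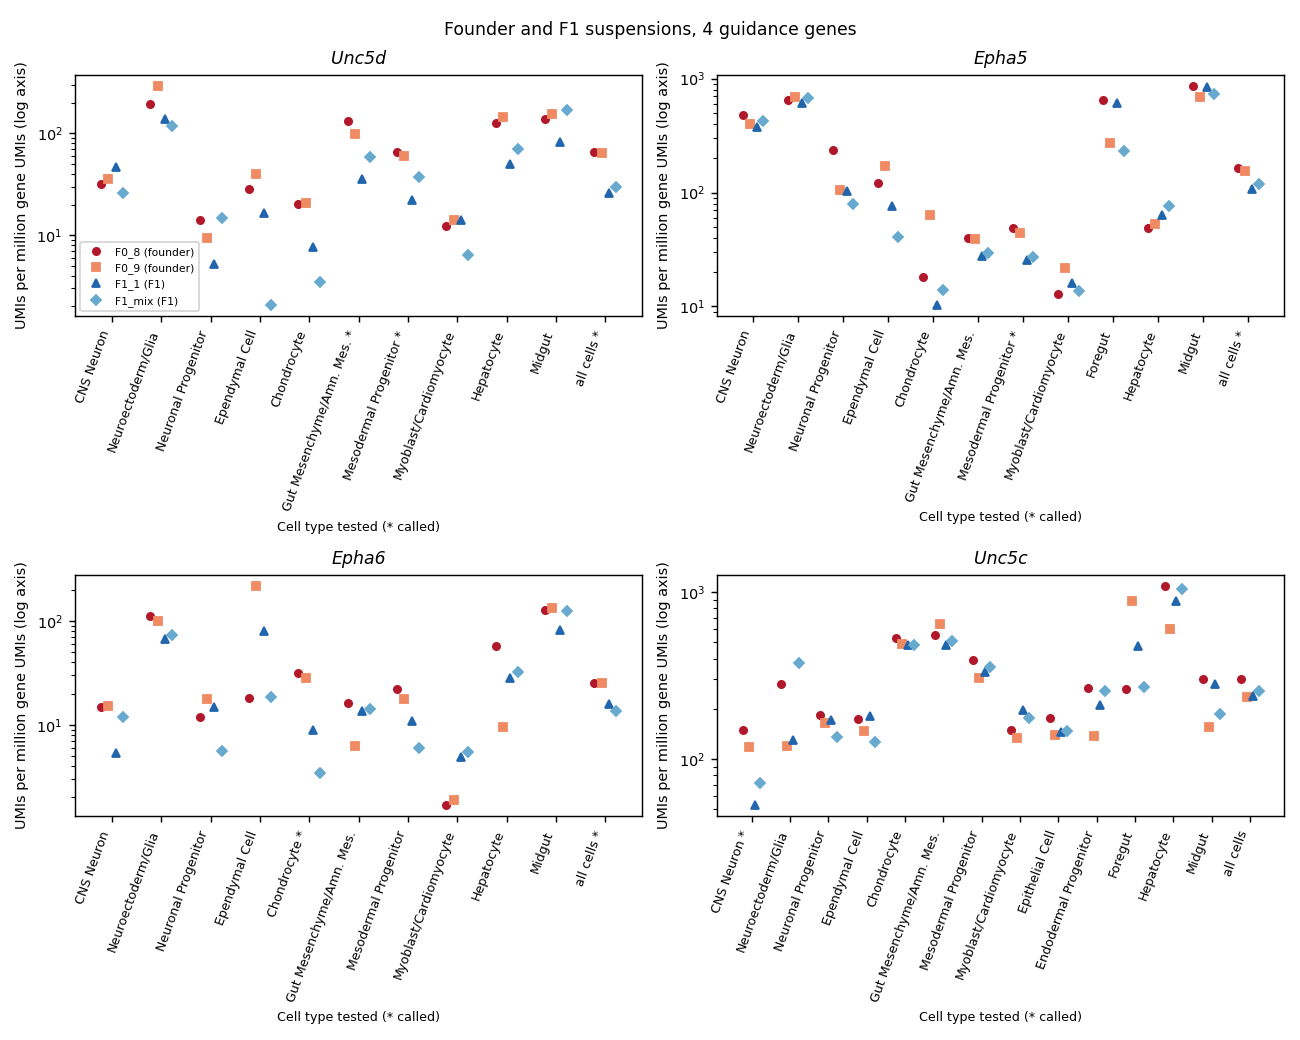
Level in CPM (log axis) of Unc5d, Epha5, Epha6 and Unc5c in each suspension, by cell type tested and over all cells, with an asterisk where called by edgeR. Epha6 in Chondrocyte passed the filter on low counts only through the founders, so its asterisk is not a finding. For Unc5d both founder points lie above both F1 points in 6 of 10 types, among them Chondrocyte and Ependymal Cell, where its counts were low. Over all cells the founder points lie at 65.9 and 65.0 against 26.0 and 29.9.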

How the data were processed

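Gene expression was measured in 1 multiplexed droplet library of 4 cell suspensions, whose generation was taken from the series description. The matrices were deposited by the authors as UMI counts per gene and barcode, made with Cell Ranger (the file headers name 7.2.0) against GRCm38 plus EGFP and without correction for free RNA. The sources used here do not state whether intronic reads were counted, so levels of long genes may include priming inside introns. Cell types came from the table deposited by the authors, in which doublets had already been removed with DoubletFinder, and 20 other columns of it were not used. No further doublet caller was run.

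Cells named in that table were used (5678 of 6006 barcodes), and oligo counts were kept out of all totals. UMIs were summed per cell type and suspension. A type was tested with at least 20 cells in each suspension (13 of 16 types), and a marker class with at least 10 cells per class and suspension. Counts were tested with edgeR 4.0.16 in R 4.3.3 (quasi-likelihood, TMM, filterByExpr, no covariate for the generations and a suspension term for marker classes), with Benjamini-Hochberg adjustment over all genes of a comparison and a threshold of 0.05. In simulated data, 19.6% of 2-fold and 90.9% of 4-fold changes were recovered for founders against F1 in Neuronal Progenitor (10639 genes), and 45.9% and 83.3% for the GABAergic comparison (7935 genes). Thinning was to 5000 UMIs per cell. Python 3.11.15, numpy 2.4.6, pandas 2.3.3, scipy 1.17.1 and matplotlib 3.10.9 were used for the rest. Gene lengths and starts came from RefSeq on GRCm38.p6.

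All 31 members are accounted for. Of 50 listed partners and effectors, those called are named, or the 10 with the smallest adjusted p-values. The floor plate list used was shortened after the data were seen, in departure from the planned list, and 1 planned marker-class comparison is not reported here. Members, marker lists and partners were chosen with earlier results of these data known. The alternatives were DESeq2 1.42.0, no filter on low counts, leaving out each suspension, cells under 5% mitochondrial UMIs, 50 cells per suspension, 1 more marker UMI, other denominators and a mean over cells. Raw droplets of 1 to 100 UMIs (1435345) gave the level of free RNA.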

Additional observations from a re-analysis of the deposited data

Results flagged for a closer look

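In some cell types both founders lay on the other side of both F1 suspensions than in the type where a gene was called, and these differences between types were not tested. Epha5, higher in founders in Mesodermal Progenitor, had a log2 difference of founders minus F1 of −0.382 in Hepatocyte. Epha6, whose levels in Chondrocyte are a description only, was at −1.52 in Myoblast/Cardiomyocyte, from 3 and 4 UMIs in the founders and 20 and 24 in the F1 suspensions. Unc5c, higher in CNS Neuron, was at −0.411 in Myoblast/Cardiomyocyte. Dcc, lower in founders in Midgut, was at 0.558 in Ependymal Cell, 0.479 in Gut Mesenchyme/Amniotic Mesoderm, 0.856 in Hepatocyte and 0.251 in Neuronal Progenitor.

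The 328 barcodes without an annotated cell type, which no comparison used, held 8360 UMIs of the 31 genes among 1767171, or 4731 CPM, above the 1.70 CPM that a count of 0 allows and beside 3418 CPM in the cells used.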

How the results depend on the processing

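No call of a member changed sign under any alternative that gave a value. Leaving out 2 calls of genes that passed the filter on low counts only through the group where they are high, 17 of 37 calls of members stayed past the threshold in every alternative tried (15 of 28 between marker classes and 2 of 9 between generations). So did 17 of 44 calls of partners, and 2 of the 44 changed sign, both in the floor plate comparison without Neuroectoderm/Glia (Lrrc4c at 0.54 and Dscam at 2.12). Of 186 levels, 183 moved by less than 1 SD. Most of these left out 1 of the 4 suspensions that the SD was taken over. That cannot move a mean by 1 SD, so nothing is read from this count. The number of members with a separate highest type (6) was 12 over deep types only, 2 with a mean over cells and 7 to 9 when a suspension was left out. The 6 calls of members between generations within types became 26 with no filter on low counts and 7 to 17 when a suspension was left out, and the 747 calls over all genes became 429 by DESeq2, 3154 with no filter and 567 to 1554. In these fits a lone suspension is assumed to vary like the others. Over all cells the 4 calls became 2 to 4. The 10 calls of the floor plate comparison became 5 to 9 when a suspension was left out, and the 3 of the GABAergic list became 1 by DESeq2 and 8 with no filter. The 0 calls between surface ectoderm and endoderm became 4 with no filter, 2 with 1 more marker UMI, 0 to 2 when a suspension was left out and 1 in cells of at least 10000 UMIs. That depth limit, the endothelial comparison with 5 cells per class, the shortened floor plate list, its comparison without Neuroectoderm/Glia and the count over all 16 types were chosen after seeing the data. The arterial against venous and cardiac against skeletal comparisons, and the endothelial one at 10 cells, had too few cells and were not run. The causes of these moves were not tested, beyond fewer samples or more genes entering a fit. With 2 suspensions per generation, 2-fold changes were mostly missed in simulated data, so a member that was not called is not shown to be equal.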
